A study of Mus musculus with 4 samples.

Results

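Haematopoietic niche cytokines are the secreted and surface proteins with which stromal cells hold and feed blood-forming cells. A set of 9 genes of this kind was examined in cells of the fetal liver surface with and without p57: Kitl, Cxcl12, Thpo, Epo, Angpt1, Csf1, Il7, Flt3l and Vcam1. The members were all probe sets to which the platform annotation gives exactly 1 symbol and where that symbol is in the set. This gave 18 probe sets for 6 of the 9 genes, of 45037 probe sets that are not controls, which cover 18193 genes. Kitl and Csf1 had 4 probe sets each, Cxcl12 and Vcam1 had 3 each, and Angpt1 and Il7 had 2 each. Flt3l shares its probe set with the symbol Rpl13a and so was not counted. Thpo and Epo are not analysed here.

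The samples were hepatic mesothelial cells, the sheet that covers the liver, with the submesothelial cells beneath them, removed surgically from C57BL/6 mouse embryos at embryonic day 17.5. Of the 4 samples, 2 were wild-type (p57+/+) and 2 lacked p57 (p57-/-, given as Kip2 -/- in the genotype label), the cyclin-dependent kinase inhibitor encoded by Cdkn1c. The titles place 1 sample of each genotype in experiment 1 and 1 of each in experiment 2, and these numbers serve as replicate numbers. The labels do not say how the null allele was made or whether a sample was 1 embryo or a pool, so a p-value here covers the spread between the samples at hand, part of which may be technical.

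The fetal liver is the main blood-forming organ of the embryo before the bone marrow takes over. Stromal cells there, among them mesenchymal and stellate cells, endothelium, hepatocytes and mesothelium, supply the signals. KIT ligand and FLT3 ligand drive survival and division of stem and progenitor cells. CXCL12 and VCAM-1 draw them in and hold them. Erythropoietin and thrombopoietin support red cell and platelet precursors. CSF-1 supports macrophages, interleukin-7 supports lymphoid precursors, and angiopoietin-1 acts on the TEK receptor of endothelium and stem cells.

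Each value is a MAS5 signal, a linear brightness that the authors scaled to a common mean on each array, and comes with a call of whether the probe set was detected (Present, Marginal or Absent). Between 48.5% and 50.1% of probe sets were called Present on an array, and the lowest Present signals were 12.4 to 15.4. Cdkn1c matched the labels, at 10255 and 9866 in p57+/+ against 7.79 and 7.28 in p57-/-, Absent on both. All 9 mesothelial markers listed were tested, and the uroplakin gene Upk3b lay between 2334 and 3732. The 9 erythroid and 7 granulocyte markers tested had summed signals up to 110435 and 181787, so the samples were mixed with blood cells. The 7 hepatocyte markers tested had summed signals of 291715 to 361847, so hepatocyte RNA was present too. Its part in the member values was not tested. The p57+/+ arrays differed in sex-linked signals. Replicate 1 had Xist at 12199 and Eif2s3y at 2.56, replicate 2 had 86.7 and 1734, and both p57-/- arrays had both genes, Xist at 7889 and 6412 and Eif2s3y at 966 and 904. The part of this difference in the results was not tested. Signals of different probe sets cannot be ranked against each other as amounts of RNA, because each probe set has its own brightness. Genes are therefore compared here by 1 probe set between arrays. The summed signals of marker lists are also compared between arrays, and in these the brightest probe sets weigh most.

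No member differed between the genotypes past the threshold. Of the 18 probe sets, 13 were called Present on all 4 arrays, and the same 13 were tested. The other 5 were Present on 1 array or none and did not enter the fit. In limma (moderated linear model, two-sided, Benjamini-Hochberg adjustment over 22800 tested probe sets, threshold 0.05), 0 of the 13 passed, beside 0.00439% of all tested probe sets, which is Cdkn1c alone. At an unadjusted p under 0.05 there was 1, a Csf1 probe set. The largest log2 change among the 13, p57-/- minus p57+/+, was 0.47 in size. Both p57-/- arrays lay above both p57+/+ arrays in 3 of the 13, beside 19.8% of all tested probe sets, and below both in 1, beside 18.8%. In 6 of the 13 the p57-/- array was the higher one in both experiments, beside 27.9%, and in 2 it was the lower one in both, beside 26.8%. The experiments disagreed in sign in the other 5. The median log2 change of the 13 was 0.14, beside 0.0072 for all tested probe sets. Probe sets of the same gene read the same RNA and are not independent.

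**Figure D1:**
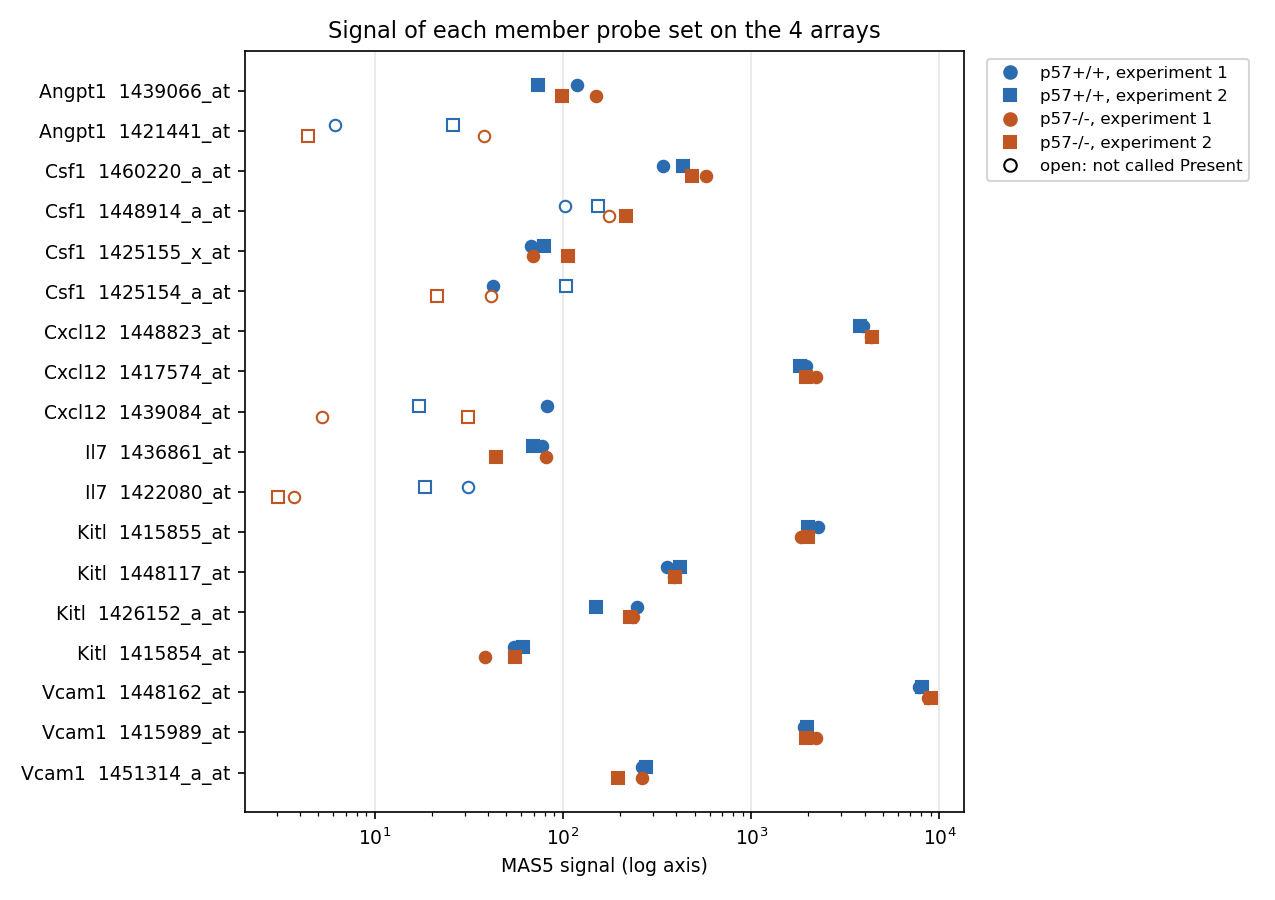
MAS5 signal (log axis) of the 18 member probe sets on the 4 arrays, with p57+/+ in blue, p57-/- in orange, circles for experiment 1 and squares for experiment 2. Open symbols are signals not called Present; the 13 probe sets filled on all 4 arrays are those tested, and 3 of these have both orange symbols to the right of both blue ones.

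Cxcl12 encodes the chemokine that retains blood stem and progenitor cells through the receptor CXCR4. Its brightest probe set, 1448823_at, read 3912 and 3784 in p57+/+ against 4325 and 4400 in p57-/-. Both p57-/- arrays were the higher ones, with no overlap. Experiment 1 gave a log2 change of 0.14 and experiment 2 one of 0.22, with 0.18 (SE 0.12) in the fit (limma adjusted p = 0.729). The 95% interval of the difference ran from 0.947-fold to 1.36-fold. A second probe set, 1417574_at, read 1947 and 1811 in p57+/+ against 2213 and 1944 in p57-/-, where the lower p57-/- array lay just under the higher p57+/+ array. Its log2 change was 0.14 (SE 0.14), positive in both experiments. The third, 1439084_at, was Present only on p57+/+ replicate 1, at 82.6. It gave 17.2 on the other p57+/+ array and 5.23 and 31.3 in p57-/-, all Absent, and was not tested. Cxcl12 was thus well detected with 2 probe sets, and a change of 1.5-fold lies outside the intervals of both.

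Vcam1 encodes the adhesion molecule to which blood cells bind with the integrin of ITGA4 and ITGB1. Probe set 1448162_at read 7805 and 8070 in p57+/+ against 8688 and 9069 in p57-/-. The groups did not overlap, and the log2 change was 0.15 in experiment 1 and 0.17 in experiment 2. The fitted change was 0.16 (SE 0.11, limma adjusted p = 0.747), with a 95% interval from 0.944-fold to 1.32-fold. Probe set 1415989_at read 1913 and 1981 in p57+/+ against 2199 and 1963 in p57-/-, and these overlapped. It was at 0.20 in experiment 1 and -0.01 in experiment 2. Probe set 1451314_a_at went the other way, at 263 and 276 in p57+/+ against 262 and 195 in p57-/-. Its groups did not overlap either, but in experiment 1 the arrays differed by only -0.01 on the log2 scale, against -0.50 in experiment 2. The fitted log2 change was -0.25 (SE 0.23, limma adjusted p = 0.811). The Vcam1 probe sets therefore disagreed in direction.

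Kitl encodes KIT ligand, made both as a surface protein and in a shed form. The brightest probe set, 1415855_at, read 2254 and 2007 in p57+/+ against 1833 and 2009 in p57-/-. The lowest array was p57-/- of experiment 1, and the experiment 2 arrays were level. Experiment 1 gave a log2 change of -0.30 and experiment 2 one of 0.0011, against -0.15 (SE 0.14) in the fit (limma adjusted p = 0.809). The 95% interval ran from 0.731-fold to 1.11-fold. Probe set 1448117_at read 355 and 417 in p57+/+ against 390 and 393 in p57-/-, with a log2 change of 0.03 (SE 0.19). Probe set 1426152_a_at read 248 and 150 in p57+/+ against 235 and 226 in p57-/-. Here p57+/+ replicate 2 was the array that stood apart, and the log2 change was -0.08 in experiment 1 and 0.59 in experiment 2. The dimmest, 1415854_at, read 54.9 and 60.9 in p57+/+ against 38.5 and 55.8 in p57-/-, at -0.32 (SE 0.47). All 4 Kitl probe sets overlapped between the genotypes in this comparison, 2 with a higher and 2 with a lower mean log2 signal in p57-/-. Whether the probes can tell the surface form from the shed one was not tested.

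Csf1 encodes the growth factor of macrophages and their precursors, and its brightest probe set had the largest log2 change of the tested members. Probe set 1460220_a_at read 339 and 431 in p57+/+ against 578 and 483 in p57-/-. Both p57-/- arrays were above both p57+/+ arrays, most clearly in experiment 1. The log2 change was 0.77 in experiment 1 and 0.16 in experiment 2. The fit gave 0.47 (SE 0.20), an unadjusted p of 0.0432 and a limma adjusted p of 0.642, with a 95% interval from 1.01-fold to 1.88-fold that is not adjusted for the number of probe sets. Probe set 1448914_a_at also did not overlap, at 102 and 154 in p57+/+, Absent on both, and 176 (Absent) and 216 (Present) in p57-/-. It was 1.56-fold higher in p57-/- but was not tested, with 1 array of 4 Present. A fold of this kind uses the signals of the dim genotype although they were Absent. It is an estimate and not a lower bound. Probe set 1425155_x_at, of a type whose probes can also match other transcripts, read 67.3 and 79.3 in p57+/+ against 69.6 and 106 in p57-/-, at 0.23 (SE 0.39). The fourth, 1425154_a_at, went the other way and was not tested. It read 42.3 (Present) and 103 (Marginal) in p57+/+ against 41.6 and 21.3, both Absent, in p57-/-. The estimate was 2.22-fold lower in p57-/-, with nearly equal arrays in experiment 1.

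Angpt1 encodes the ligand that activates the TEK receptor. Of its 2 probe sets, 1439066_at was Present on all 4 arrays, at 118 and 73.4 in p57+/+ against 150 and 98.3 in p57-/-. The p57-/- array was the higher one in each experiment, by a log2 change of 0.34 and 0.42, but the arrays of 1 genotype differed more than that between experiments, and the groups overlapped. The fitted change was 0.38 (SE 0.37, limma adjusted p = 0.825), and its 95% interval ran from 0.731-fold to 2.32-fold. Probe set 1421441_at was Absent on all 4 arrays, at 4.40 to 38.1. The interval of 1439066_at holds both a decrease and an increase, so these arrays do not settle the direction of change.

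Il7 encodes interleukin-7, the growth factor of B- and T-lymphoid precursors. Probe set 1436861_at was dim but Present on all 4 arrays, at 76.8 and 69.3 in p57+/+ against 81.3 and 43.9 in p57-/-. The low value was p57-/- of experiment 2, and the log2 change was 0.08 in experiment 1 and -0.66 in experiment 2. The fitted change was -0.29 (SE 0.44, limma adjusted p = 0.900), with a 95% interval from 0.409-fold to 1.64-fold. Probe set 1422080_at read 31.2 and 18.4 in p57+/+ against 3.72 and 3.05 in p57-/-. It was called Absent on all 4 arrays, so no fold is given.

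**Figure D2:**
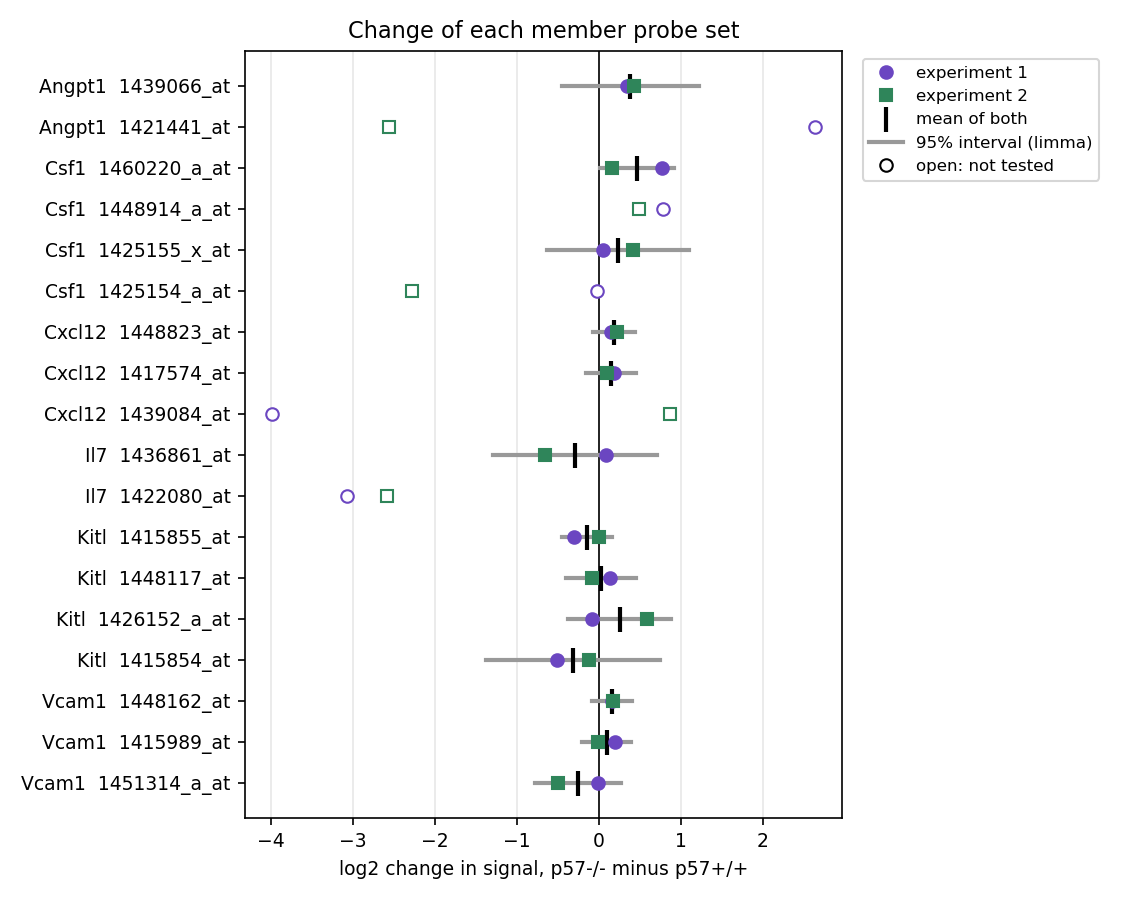
Log2 change in signal (p57-/- minus p57+/+) of the 18 member probe sets in experiment 1 (purple circles) and experiment 2 (green squares), with the fitted mean (black tick) and its 95% limma interval (grey bar) for the 13 tested. The widest changes are in open symbols, the untested probe sets; among tested ones the largest fitted change is 0.47, for Csf1 1460220_a_at.

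The receptors of the 9 ligands were examined as the partner in each pair. Of 12 receptor genes tested, each read by its probe set of highest mean log2 signal, none passed the threshold. Signals did not overlap in 5 that were higher and 2 that were lower in p57-/-. Over all 11656 tested genes the shares were 21.7% higher and 19.0% lower. The counts without overlap in the gene lists below stand beside the same shares. The median log2 change of the receptors was 0.17, beside 0.02 for all tested genes.

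Cxcr4 and Ackr3 encode the signalling and the scavenging receptor of CXCL12. Cxcr4 read 474 and 469 in p57+/+ against 634 and 609 in p57-/-, with a gap between the groups wider than the spread within each. Its log2 change was 0.42 and 0.38 in the experiments and 0.40 (SE 0.16) in the fit (limma adjusted p = 0.631). Ackr3 read 1271 and 1792 in p57+/+ against 1925 and 1926 in p57-/-, where p57+/+ replicate 1 was the low array. The log2 change was 0.35 (SE 0.17, limma adjusted p = 0.653). The brightest Cxcl12 probe set and the probe sets of both of its receptors thus lay higher in p57-/- without overlap, and none of them passed the test.

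Kit, the receptor of KIT ligand on stem cells, progenitors and mast cells, read 985 and 795 in p57+/+ against 1116 and 1020 in p57-/-. These did not overlap, and the log2 change was 0.27 (SE 0.16, limma adjusted p = 0.714). Flt3, the receptor of FLT3 ligand, was dim and overlapped, at 0.23 (SE 0.31). Of the receptor genes for VCAM-1, Itga4 read 1596 and 1591 in p57+/+ against 1265 and 1421 in p57-/-. It was lower without overlap, with a log2 change of -0.25 (SE 0.14). Its other tested probe sets were at -0.34 (SE 0.23), also lower without overlap, and at -0.15 (SE 0.19), with overlap. Itgb1 was at 0.10 (SE 0.12) and Itgb7, a dimmer partner of ITGA4, at 0.27 (SE 0.23).

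Epor encodes the erythropoietin receptor of red cell precursors and had the largest log2 change of the receptors. It read 999 and 996 in p57+/+ against 572 and 768 in p57-/-. Both p57-/- arrays were the lower ones, and the change was -0.80 in experiment 1 and -0.38 in experiment 2. The fit gave -0.59 (SE 0.18, limma adjusted p = 0.549). In the erythroid marker list, 9 of 9 tested genes were lower in both experiments, beside 3110 of all 11656 tested genes. Of these 9, 8 did not overlap. The list's summed signal was 104542 and 110435 in p57+/+ against 70306 and 94097 in p57-/-. In bulk samples, fewer cells of a type and less RNA per cell cannot be told apart, and the part of the erythroid cells in the Epor value was not tested.

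For the other pairs the receptors overlapped between the genotypes. Csf1r, the receptor of CSF-1 on macrophages, read 12884 and 12096 in p57+/+ against 15288 and 10912 in p57-/-, with a log2 change of 0.05 (SE 0.15). Its other probe sets were at 0.38 (SE 0.19) and 0.17 (SE 0.17). Macrophage markers had a median log2 change of 0.02, with 2 of 8 higher and 2 lower without overlap. Il7r, the receptor chain for interleukin-7, was at 0.25 (SE 0.22), and the 5 tested B-lymphoid markers, Il7r among them, had a median of -0.19. Their summed signal was 4138 and 4112 in p57+/+ against 2633 and 4232 in p57-/-, so the p57-/- array of experiment 1 stood apart. Tek, the receptor of angiopoietin-1, was at -0.01 (SE 0.18) and its relative Tie1 at 0.11 (SE 0.50). Endothelial markers had a median of 0.22, at 0.53 in experiment 1 and -0.19 in experiment 2, and 0 of 7 were non-overlapping in either direction.

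**Figure D3:**
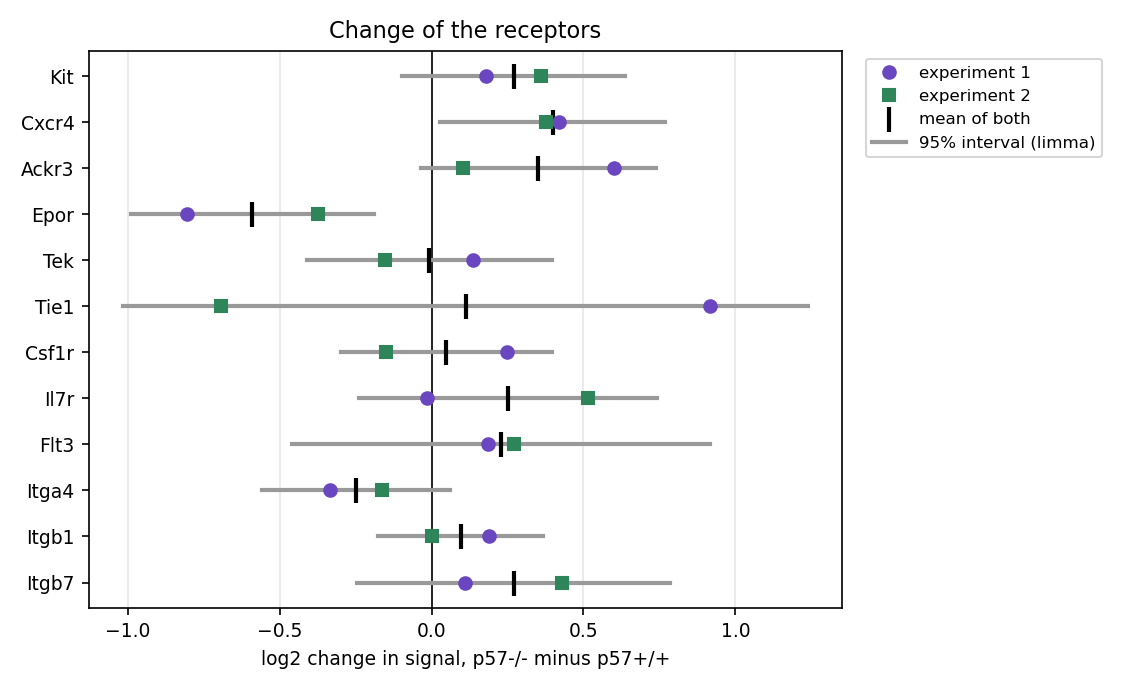
Log2 change in signal (p57-/- minus p57+/+) of the 12 receptor genes tested, in experiment 1 (purple circles) and experiment 2 (green squares), with the fitted mean (black tick) and its unadjusted 95% limma interval (grey bar). Epor is the lowest at -0.59, Cxcr4 the highest at 0.40, and none passes after adjustment.

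Other secreted factors that act on blood-forming cells were detected in part. Of 22 listed genes with a probe set, 10 were tested, and 10 were Present on no array with any probe set: Angpt2, Il34, Tslp, Il3, Il11, Lif, Csf2, Csf3, Angptl1 and Cxcl14. The 10 tested genes had a median log2 change of 0.21, and 1 was higher without overlap and 0 lower. None passed. Dlk1, which encodes a membrane protein of hepatoblasts and stroma, read 8483 to 10335 over the 4 arrays, and Ptn, the gene of the growth factor pleiotrophin, read 1090 to 2103.

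Genes whose products shed or process the ligands lay on both sides of zero. Among 13 tested, 2 were higher and 2 lower without overlap, and the median log2 change was 0.02. The proteases ADAM10 and ADAM17, which can release surface proteins such as VCAM-1 and CSF-1, had overlapping signals with the brightest probe set of each gene. Adam10 was at -0.15 (SE 0.15) and Adam17 at -0.02 (SE 0.15). The other tested Adam10 probe sets were lower in p57-/- without overlap, at -0.60 (SE 0.23, limma adjusted p = 0.606) and -0.23 (SE 0.15, limma adjusted p = 0.737). Tnfaip6, which encodes a hyaluronan- and chemokine-binding protein, was dim. It read 42.3 (Present) and 37.1 (Absent) in p57+/+ against 19.9 (Absent) and 30.4 (Present) in p57-/-, with a log2 change of -0.69 (SE 0.64).

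Of 13 tested genes for adhesion of blood cells to stroma, 4 were higher and 1 lower without overlap, with a median log2 change of 0.13, of 0.41 in experiment 1 and -0.18 in experiment 2. None passed. Selp encodes P-selectin of platelets and endothelium. Its brightest probe set read 43.8 and 63.9 in p57+/+, Absent on both. In p57-/- it read 214 and 109, an estimated 2.88-fold higher signal (limma adjusted p = 0.549). This estimate uses the Absent p57+/+ signals and is not a lower bound. The other tested Selp probe set had a log2 change of 0.35 (SE 0.75). The summed signal of 5 megakaryocyte markers was 10297 and 11641 in p57+/+ against 16706 and 10576 in p57-/-, highest on the same array as Selp, and their part in the Selp value was not tested. Icam4, an adhesion molecule of red cell precursors, read 3792 and 3787 in p57+/+ against 1683 and 2999 in p57-/-, with a log2 change of -0.75 (SE 0.23, limma adjusted p = 0.549), beside the lower erythroid markers given with Epor.

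Receptors such as those of erythropoietin and thrombopoietin act through the kinase JAK2 and the factor STAT5. Of 10 tested genes of this arm, 3 were higher and 1 lower without overlap, and the median log2 change was 0.08. None passed the test. Stromal markers were also given beside the members, since mesenchymal and stellate cells are a known source of Cxcl12 and Kitl. Of 11 tested, 6 were higher and 2 lower without overlap, beside 21.7% and 19.0% of all tested genes. The median log2 change was 0.20, with 0.33 in experiment 1 and 0.05 in experiment 2. Des was Present on no array. The summed signal was 77728 and 87712 in p57+/+ against 99439 and 91523 in p57-/-, and its part in the Cxcl12, Vcam1 and Csf1 values was not tested.

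**Figure D4:**
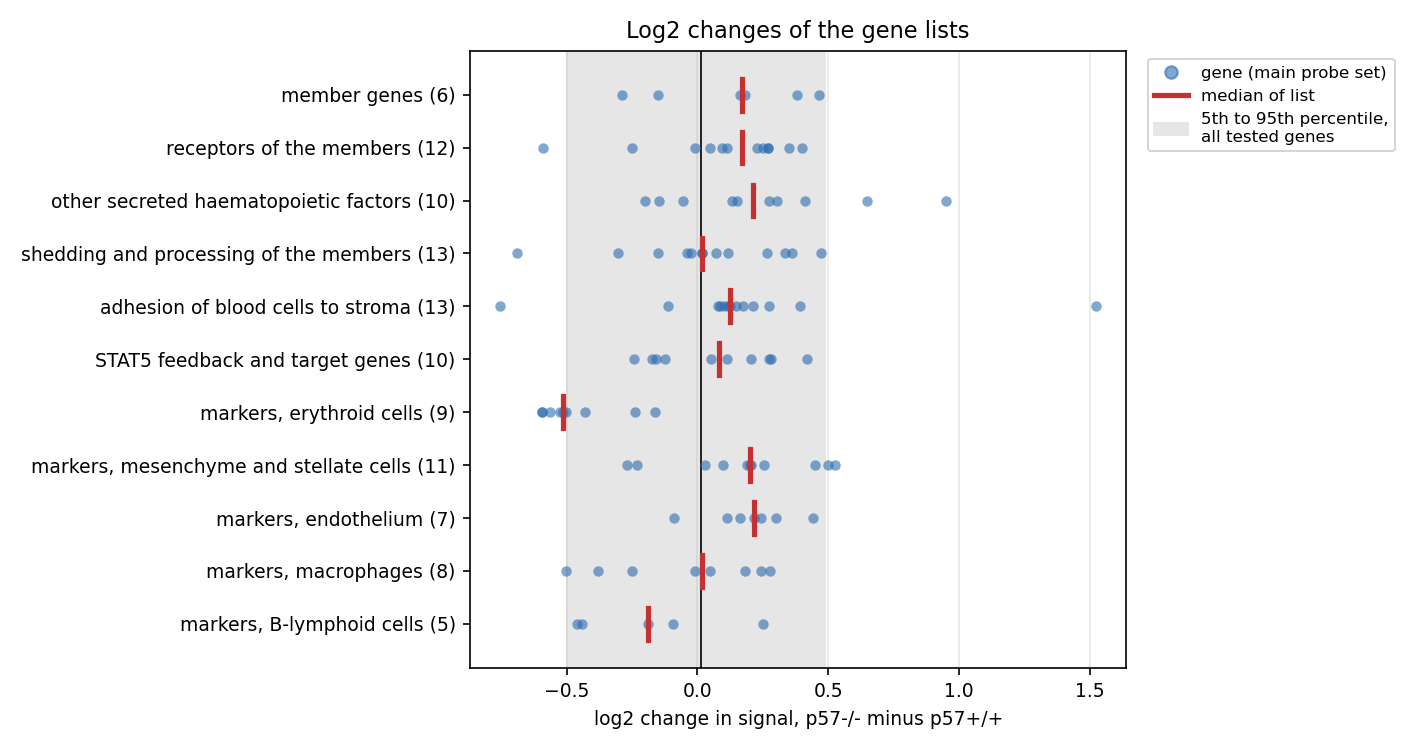
Log2 change in signal (p57-/- minus p57+/+) of each tested gene (blue points) in the members and 10 other lists, with the list median (red bar) and the range from the 5th to the 95th percentile of all 11656 tested genes (grey, -0.50 to 0.49) and their median (black line). All 6 member genes lie inside the grey range, and the erythroid markers have the lowest median, -0.51.

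Among members Present on all 4 arrays, Angpt1 had the widest range of log2 signal over the arrays, 1.03. The 3 other genes with the most similar centred profile, by Euclidean distance between log2 signals over 4 arrays, were Hspb6, Znrd1as and Trps1, at distances of 0.07, 0.08 and 0.12 among 10338 genes compared. Hspb6, which encodes a small heat shock protein of muscle, read 125 and 77.3 in p57+/+ against 151 and 98.1 in p57-/-. Like Angpt1, it was higher in experiment 1 than in experiment 2 in both genotypes, which follows from its choice by likeness. With 4 arrays, 36 genes lay within a distance of 0.25, so the order among them has little weight.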

How the data were processed

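RNA from 4 samples was read on 1 single-colour Affymetrix array each, with 45101 probe sets, 64 of them controls. The authors deposited, per the file headers and per the submitters' processing notes (MAS5), the MAS5 signal, a linear intensity, with a detection p-value and call. The MAS5 version is not given in the sources used here. All deposited signals had the same 2% trimmed mean, 500.003, on all arrays. Signals were log2 transformed with no further normalization or pseudocount. Probe sets Present on at least 2 arrays were tested (22800) with limma 3.58.1 in R 4.3.3, with a variance trend and no block. The fit was checked on simulated data with the same spread for all probe sets and larger changes than any tested member had. That check does not cover changes of the members' size. Where a gene had several tested probe sets, that with the highest mean log2 signal stood for it. The RefSeq table of GRCm38.p6 held the gene of 34741 of 34945 single-symbol probe sets, and 0 symbols differed.

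The members and lists were chosen with earlier results of these data known. Context genes were named if they were receptors, or did not overlap with a log2 change of at least 0.5, apart from cell type markers. Dlk1, Ptn, Adam10, Adam17, Upk3b, Xist and Eif2s3y were named after their values were seen. Alternatives covered normalization, pseudocount, filter, variance model, block, value table, probe set choice and left-out arrays.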

Additional observations from a re-analysis of the deposited data

Results flagged for a closer look

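With the brightest probe set of each member, 2 genes differed in sign between the experiments, a difference that was not tested because each experiment has 1 array per genotype. Kitl was at -0.30 in experiment 1 and 0.0011 in experiment 2, which is level. Il7 was at 0.083 in experiment 1 and -0.66 in experiment 2.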

How the results depend on the processing

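No member probe set passed in limma under any alternative, and the lowest adjusted p, 0.318, was for Csf1 without p57-/- replicate 2, against up to 0.924 over left-out arrays. Over the 6 genes, 71 of 72 alternative values kept their sign, and those with an adjusted p kept their side of the threshold. The exception in sign was Il7, at 0.16 without p57-/- replicate 2, within a range over left-out arrays of -0.73 to 0.16. The filter, variance model and block leave the log2 change of a probe set as it is, and the value table holds nearly the same signals. These alternatives could therefore not change a sign, and the count of kept signs includes them. Over left-out arrays, Csf1 ranged from 0.29 to 0.64, Angpt1 from 0.04 to 0.73 and Kitl from -0.23 to -0.06. With the mean of all tested probe sets, Vcam1 was at 0.00018 and Kitl at -0.05. This mean has no adjusted p, and for Angpt1 and Il7 it equals the main value. With the replicate block, 30 probe sets of all tested passed, 10 higher and 20 lower, with 0 members (lowest adjusted p = 0.510). The deviations of samples with the same number had a correlation of 0.0046 across probe sets, so the numbers were not taken as pairs. Requiring Present on all 4 arrays gave 0, since it removes Cdkn1c. Leaving out an array gave 5 to 221 calls, the highest without p57-/- replicate 2. Member probe sets without overlap numbered 4 to 7 higher and 2 to 3 lower over left-out arrays. Leaving out an array can only add to these counts. Member probe sets lower without overlap were 2 after quantile normalization and 3 without a filter, and 4 were lower in both experiments without a filter. The matching shares over all probe sets were not computed for these alternatives. With 2 arrays per genotype, the intervals of dim probe sets such as those of Il7 and Angpt1 were wide and held both a decrease and an increase.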
